A study of Homo sapiens with 2 samples.

Results

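The replication-dependent histone genes were taken as every gene whose GRCh37-era symbol began with HIST1H, HIST2H, HIST3H or HIST4H, with pseudogenes left out. The rule gave 70 genes: 6 for the linker histone H1, 17 for H2A, 18 for H2B, 14 for H3 and 15 for H4. Of these, 36 had an Ensembl identifier in the deposited count tables, which hold 63677 gene identifiers in all. By class these were all 6 H1 genes, 8 H2A, 10 H2B, 6 H3 and 6 H4 genes. The other 34 could not be matched between the reference annotation and the tables and were not analysed here, so every class sum below covers the matched genes only. They include H3C1, H3C2 and H3C3 of class H3 and H4C1, H4C4 and H4C5 of class H4.

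The samples were 2 RNA-seq libraries of MDA-MB-231, an established line of triple-negative breast cancer cells. 1 library carries the label control and 1 the label Carpesium cernuum extract (CCE), an extract of a plant of the daisy family. A protocol of 1 µg/mL CCE over 24 h is given with the control sample too, and any vehicle in the control wells is unknown here. Each group was a single library, so no difference has a replicate check and none was tested. Every interval below is an exact 95% Clopper-Pearson interval of the counts. It covers counting error only, not the spread between cultures, and PCR copies are not independent molecules.

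Histones package DNA: H2A, H2B, H3 and H4 form the core of the nucleosome and H1 binds the linker DNA between nucleosomes. The genes of the clusters are mostly switched on in S phase, when new DNA has to be packaged. Their mRNAs as a rule lack introns and end in a conserved stem-loop in place of a poly(A) tail. The stem-loop is bound by the protein SLBP, which acts in processing, translation and stability of the mRNA. Some of these genes are also known to give polyadenylated transcripts, for example in cells that have left the cycle. The labels do not say whether these libraries were selected by poly(A) tail or by removal of ribosomal RNA, a choice that sets how much tail-less mRNA a library holds.

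The stem-loop is shown here because it is typical of these genes and because the measured genes carry it in different forms. It was searched for within 100 bases after the stop codon in the GRCh37 genome, as a stem of 6 base pairs with at most 1 mismatch around a loop of 4 bases. The search also required GG at the start, CC at the end and TT as the first bases of the loop, so these letters are shared by rule. The stem-loop was found in 62 of the 65 rule genes that the annotation places on GRCh37, starting 22 to 67 bases after the stop codon, and in all 36 genes of the count tables. The capitals mark the stem-loop, and 5 bases are shown on each side.
H1-2 stem-loop, chr6:26055967-26055992, minus strand: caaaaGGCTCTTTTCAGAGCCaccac
H2AC6 stem-loop, chr6:26124892-26124917, plus strand: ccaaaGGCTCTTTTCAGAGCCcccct
H2AC11 stem-loop, chr6:27101289-27101314, plus strand: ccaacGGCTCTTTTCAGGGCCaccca
H2BC5 stem-loop, chr6:26158810-26158835, plus strand: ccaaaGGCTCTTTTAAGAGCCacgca
H2BC12 stem-loop, chr6:27114140-27114165, minus strand: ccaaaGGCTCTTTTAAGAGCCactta
H4C3 stem-loop, chr6:26104540-26104565, plus strand: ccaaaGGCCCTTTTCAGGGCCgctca
H4C8 stem-loop, chr6:26285354-26285379, minus strand: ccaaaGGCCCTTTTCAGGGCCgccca
The form of H1-2 and H2AC6 was the most frequent, with 38 of 62 matches. The form of H2BC5 and H2BC12 was found in 9 genes, 4 of them H2B genes. The form of H4C3 and H4C8 was found in 8 genes, all of them H4 genes, and the other 4 H4 matches were the same but for the loop. H2AC11 was 1 of 2 genes with a mismatch in the stem.

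Gene counts came to 5633569 for the control and 34884501 for CCE. After scaling with TMM factors (which balance the libraries over most genes), the CCE library was 6.36 times the size of the control library. 1 count was worth 0.180 CPM (counts scaled to a common library size) in the control but 0.0283 CPM with CCE, so precision was limited by the control. Genes whose mean over the 2 libraries reached 1 CPM were called measured. Vimentin (VIM) and CD44, typical of this cell line, had 3739 and 767 CPM in the control library and 1801 and 616 CPM with CCE. Other genes had been listed as low or absent in this line. Of these, the estrogen receptor gene ESR1 had 0 counts in both libraries, the E-cadherin gene CDH1 had 0 and 1 and PGR had 0 and 6. ERBB2 and EPCAM, from the same list, were not absent: ERBB2 had 55.4 CPM in the control and 51.8 with CCE, and EPCAM had 10.1 and 7.50.

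Of the 36 matched histone genes, 10 were measured, and they carried nearly all of the group's counts. All 10 had a ratio above 1, as did 53.9% of all measured genes. H2BC12, at a log2 ratio of 0.01, moved to -0.04 with upper-quartile scaling. 5 of them (H4C8, H2BC4, H1-2, H2AC6 and H2BC11) were at least 1.5-fold higher with an interval that excluded 1, a call that 12.1% of all 14424 measured genes met. 0 of the 10 were at least 1.5-fold lower, against 11.3% of all measured genes. At 2-fold, 4 of the 10 were called higher, against 4.36% of all measured genes, and 0 were called lower, against 4.92%. The median log2 ratio of the 10 was 1.02, and over all measured genes it was 0.05. H2AC11 reached the minimum only through the CCE library, and without it 5 of 9 were called and the median was 1.00. In bulk RNA, more cells in S phase and more histone mRNA per cell cannot be told apart.

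**Figure D1:**
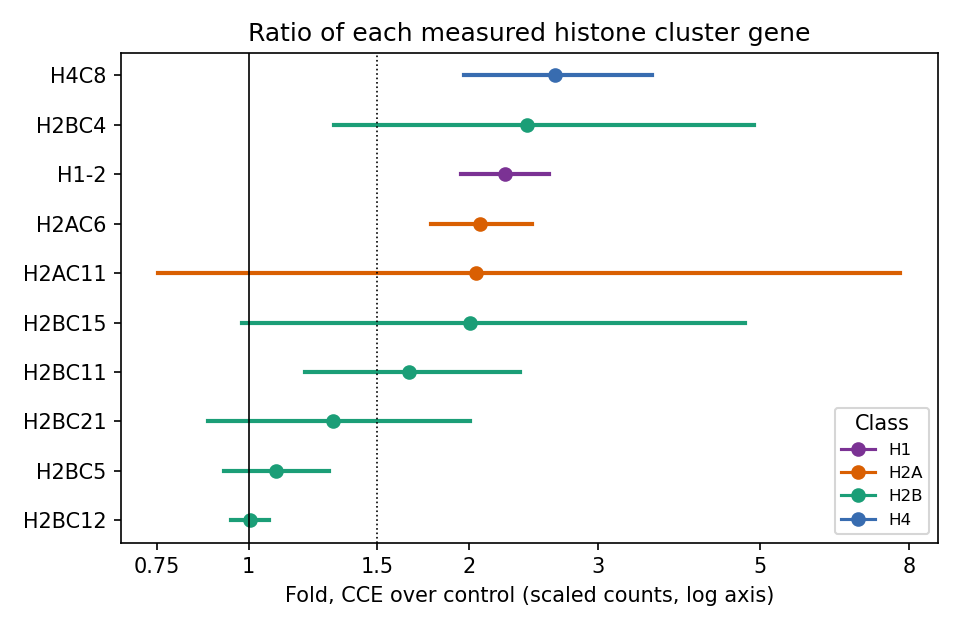
Fold of CCE over control (log axis) for the 10 measured histone cluster genes, with points for the ratio, bars for the 95% counting interval and colours for the class; the solid line marks 1 and the dotted line 1.5. H2BC12, the gene with the shortest interval, lies at 1.01, while H4C8, H1-2 and H2AC6 lie above 2.

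H1-2 was the measured gene of the linker histone class. It encodes H1.2, a somatic linker histone, and lies on chr6:26055968-26056698 (GRCh37, minus strand, 1 exon). It had 220 control and 3131 CCE counts, or 39.6 and 88.6 CPM. The ratio was 2.24-fold (interval 1.95 to 2.58). H1-2 shared no 50-base stretch of its transcript with another annotated gene. In the authors' FPKM it was listed at 0 for the control and at 85.2 for CCE, although the control count was 220. The other H1 genes were near or at 0: H1-4 had 0 and 17 counts, and H1-1, H1-3, H1-5 and the testis-type gene H1-6 had 0 in both. At equal levels 2.67 control counts would go with the 17 of H1-4, which is below the floor of 3 counts, so no fold is given for it.

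Among the 8 matched H2A genes, H2AC6 and H2AC11 were measured. H2AC6 encodes a core H2A protein and spans chr6:26124373-26139344 (plus strand). It had 171 and 2254 counts, or 30.8 and 63.8 CPM, a ratio of 2.07-fold (1.77 to 2.44). H2AC11 lies on chr6:27100822-27101314 (plus strand, 1 exon). It had 4 and 52 counts, and its ratio of 2.05 had an interval from 0.753 to 7.79, so a difference was not detectable at this depth. H2AC20 had 1 and 2 counts, H2AC13 and H2AC21 had 0 and 1, and H2AC1, H2AC7 and H2AC25 had 0 in both.

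The H2B class held most of the counts and behaved unevenly. H2BC12, on chr6:27114140-27114634 (minus strand, 1 exon), alone took 64.2% of the group's control counts and 48.9% of its CCE counts. It had 1261 and 8058 counts, or 227 and 228 CPM. By counts its level was the same in the 2 libraries within a narrow interval (1.01-fold, 0.947 to 1.07). By the authors' FPKM it was at 214 for the control and 240 for CCE. The log2 ratio of FPKM was 0.17 with a pseudocount of 1, above the count interval's upper bound of 0.09. H2BC5, on chr6:26158350-26171577 (plus strand), had 168 and 1163 counts, or 30.2 and 32.9 CPM (1.09-fold, 0.926 to 1.29). These were the 2 most abundant H2B genes, and for both the interval lay below 1.5-fold. H2BC12 shared 57.2% of its 50-base stretches with transcripts of another gene, so its count is uncertain where reads were divided or dropped. Its close relative outside the clusters, H2BC12L, had 4 and 23 counts.

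The less abundant H2B genes that were measured had larger ratios. H2BC11, on chr6:27093676-27100574 (minus strand), had 40 and 421 counts, or 7.19 and 11.9 CPM (1.66-fold, 1.20 to 2.35). By the authors' FPKM, log2(FPKM + 1), its log2 ratio was 0.38, under 1.5-fold. H2BC4, on chr6:26086545-26124154 (minus strand), had 11 and 168 counts (2.40-fold, 1.31 to 4.91). The annotated exons of H2BC4 overlap those of HFE, an iron regulator gene on the opposite strand, and whether counting used strand is unknown here. H2BC15 had 8 and 102 counts (2.01-fold, 0.980 to 4.77). By the authors' FPKM H2BC15 lay the other way, at 1.46 for the control and 0.213 for CCE. H2BC21, on chr1:149856009-149858232 (minus strand), had 28 and 232 counts, a log2 ratio of 0.38 (-0.19 to 1.00). For H2BC15 and H2BC21 the interval included no difference. Under the minimum, H2BC18 had 1 and 3 counts (0.472-fold, 0.0379 to 24.8), H2BC13 had 0 and 1, and H2BC26 had 0 in both.

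H4C8 was the measured gene of class H4 and had the highest ratio of the 10. It encodes core histone H4 and spans chr6:26277837-26285866 (minus strand). It had 50 and 834 counts, or 8.99 and 23.6 CPM (2.62-fold, 1.97 to 3.56). H4C3 had 0 and 15 counts and H4C16, on chromosome 12, had 0 and 13. H4C11 had 0 and 1 count, and H4C14 and H4C15 had 0 in both.

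No H3 gene was measured. H3C4 had 0 and 4 counts, H3C14 and H3C15 had 0 and 3 each, and H3C12 and H3C13 had 0 and 1 each. H3C14 and H3C15 are copies of one another and shared 99.2% and 100% of their 50-base stretches with another gene, and H3C4 shared 96.5%, so reads from them would align to several places. Of the 36 matched genes, 11 shared at least 50% of these stretches. Among the 10 measured genes H2BC12 was the one that did. The testis-type genes H1-6, H2AC1, H2BC1 and H3-4, which are normally expressed in the male germ line, had 0 counts in both libraries.

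The 26 matched genes under the minimum held 2 control and 66 CCE counts. At equal levels 10.4 control counts would go with the 66. Their summed ratio by counts was 5.19-fold, with a wide interval of 1.38 to 43.8. By the authors' FPKM the direction was mixed. H1-4 had 1.78 for the control and 0.504 for CCE, and H2AC20 had 1.91 and 0.577. H2BC18 had 0.563 and 0.258, and H4C3 had 1.12 and 1.00. H2AC13, H3C4, H3C12, H3C13, H3C15, H4C11 and H4C16 had 0 for the control and 0.0938 to 0.663 for CCE. Of these 26 genes, 12 were at 0 in both libraries, 12 had counts in the CCE library only and 2 had counts in both. A count of 0 in the deeper CCE library allows up to 3 counts, or 0.0849 CPM, and in the control library 0.540 CPM.

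Levels between genes were compared per kilobase of annotated exons. The length took in the exons of every annotated transcript, for example 495 bases for H2BC12 and 4265 for H2BC15. The gene models behind the counts are unknown, so the order of genes depends on this annotation. H2BC12 stood far above the others, at 458 CPM per kilobase for the control and 461 for CCE. H1-2 followed with 54.1 and 121. By this measure H2BC5 was at 35.1 and H2AC6 at 18.4 CPM per kilobase in the control library, and both were at 38.2 in the CCE library. By the authors' FPKM H2AC6 stayed below H2BC5 in both, at 11.6 and 21.8 against 29.3 and 31.0. H2BC11 had 6.88 and 11.4 and H4C8 had 4.16 and 10.9. The 4 others lay between 0.337 and 2.26 CPM per kilobase for the control and between 0.677 and 2.98 for CCE. H2BC4 was among them, but by FPKM it had 12.3 with CCE, near the 13.5 of H2BC11.

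**Figure D2:**
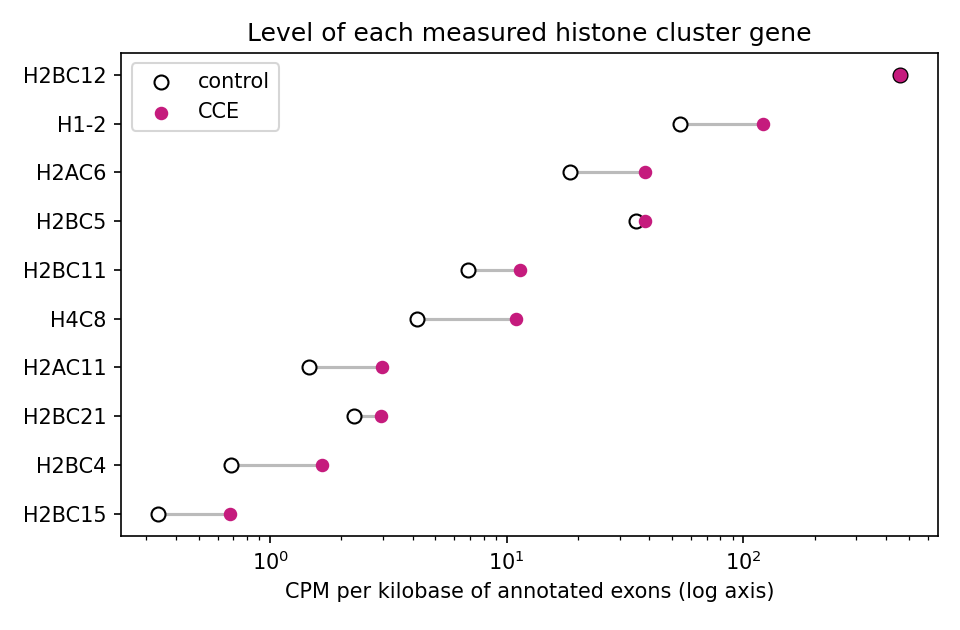
Level of the 10 measured genes in CPM per kilobase of annotated exons (log axis), with open circles for the control and filled circles for the CCE library. The circles of H2BC12 coincide, at 458 and 461, and those of H1-2 lie apart, at 54.1 and 121.

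Summed over each class, the same unevenness was seen. H1 had 220 and 3148 counts (2.25-fold, 1.96 to 2.59), H2A had 176 and 2310 (2.06-fold, 1.77 to 2.42) and H4 had 50 and 863 (2.72-fold, 2.04 to 3.69). H2B had 1517 and 10148 counts, and its ratio was 1.05 (0.997 to 1.11). The interval of H2B lay below those of H1, H2A and H4 by counting error, and no test of the difference over cultures was possible. Each of these sums was carried by few genes: H1-2, H2AC6 and H4C8 made up nearly all of theirs. H3 had 0 and 12 counts, where 1.89 control counts would go with the 12 at equal levels.

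H2BC12 decided the sum over the group. All 36 genes together had 1963 and 16481 counts, a ratio of 1.32-fold (1.26 to 1.38), and 353 and 466 CPM. Without H2BC12 they had 702 and 8423 counts and the ratio was 1.89-fold (1.75 to 2.04). Without H2BC12 the H2B class had 256 and 2090 counts (1.28-fold, 1.13 to 1.47). With H2BC5 left out as well it had 88 and 927 (1.66-fold, 1.33 to 2.09). The choice to leave out these genes was made after their values were seen.

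**Figure D3:**
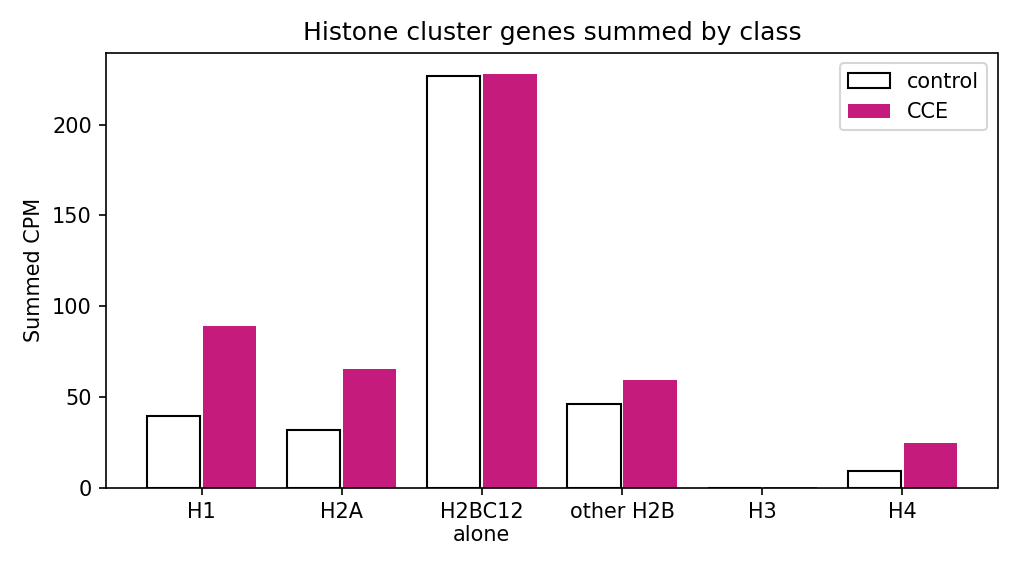
Summed CPM of the matched genes of each class in the control (open bars) and the CCE library (filled bars), with H2BC12 drawn apart from the other H2B genes. The H2BC12 bars are of equal height near 227, while the bars of H1, H2A and H4 are at least 2.06-fold higher in the CCE library; the H3 bars are too low to see.

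Several of these genes lie head to head with a gene of another class and share the stretch between their start sites as a promoter. In the annotation 10 such pairs had start sites within 500 bases, and in 6 of them both genes were in the count tables. H2BC4 and H2AC6 form 1 pair, with ratios of 2.40 and 2.07. H2BC11 and H2AC11 form another, with 1.66 and 2.05, where H2AC11 had 4 control counts and an interval of 0.753 to 7.79. H2BC21 and H2AC20 had 1.30 and 0.315, where H2AC20 had 1 and 2 counts and an interval of 0.0164 to 18.6. Whether paired genes differ together was not tested. H2BC12 pairs with H2AC12, which was not matched. The stretches between the start sites of these 3 pairs are shown because they hold the promoters of 2 genes called higher in the first pair, of 1 in the second, and of the gene whose level was the same in the 2 libraries in the third. Capitals mark ATTTGCAT (the octamer bound by POU2F factors), CCAAT (the box bound by NF-Y) and TATAAA (the TATA box) on either strand, where neighbouring matches can overlap. The letters are from GRCh37.
H2BC4-H2AC6 promoter, chr6:26124155-26124399, plus strand: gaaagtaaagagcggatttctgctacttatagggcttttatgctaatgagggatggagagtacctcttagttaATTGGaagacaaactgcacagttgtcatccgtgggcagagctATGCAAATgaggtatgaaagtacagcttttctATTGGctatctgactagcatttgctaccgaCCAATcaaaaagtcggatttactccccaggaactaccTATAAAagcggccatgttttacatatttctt
H2BC11-H2AC11 promoter, chr6:27100575-27100821, plus strand: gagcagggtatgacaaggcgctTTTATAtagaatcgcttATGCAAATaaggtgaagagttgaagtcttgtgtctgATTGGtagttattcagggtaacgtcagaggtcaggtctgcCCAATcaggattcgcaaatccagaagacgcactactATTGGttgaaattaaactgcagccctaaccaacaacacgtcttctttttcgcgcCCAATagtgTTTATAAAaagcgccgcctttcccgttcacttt
H2BC12-H2AC12 promoter, chr6:27114635-27114884, plus strand: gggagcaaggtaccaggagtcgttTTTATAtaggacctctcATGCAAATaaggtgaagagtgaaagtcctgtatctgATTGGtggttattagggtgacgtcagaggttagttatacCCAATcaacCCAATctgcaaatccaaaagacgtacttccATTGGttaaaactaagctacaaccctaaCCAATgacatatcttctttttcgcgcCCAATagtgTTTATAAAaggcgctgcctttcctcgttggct
Each of the 3 stretches held 1 octamer. CCAAT was found 3, 4 and 6 times and TATAAA 1, 3 and 3 times in the order shown. Whether these letters bear on the ratios was not tested.

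The motifs were counted over the RefSeq promoters (GRCh38.p14, 250 bases before to 50 after the start), in which 64 of the 70 genes were found. A histone gene was counted if any of its promoters held the letters. The share over all promoters is per single promoter, so the 2 measures differ for genes with several promoters. The octamer was found for 14 of 18 H2B, 10 of 15 H2A and 1 of 12 H3 genes. It was found for 0 of 6 H1 and 0 of 13 H4 genes, and in 1.77% of all 34943 promoters. Of the measured H2B genes, H2BC5 and H2BC15 lacked these letters. CCAAT was found for all 6 H1, 15 H2A, 18 H2B and 12 H3 genes but for 3 of 13 H4 genes. It stood in 34.6% of all promoters. GGTCCG, the core of the H4 element bound by HINFP, was found for 12 of 13 H4 genes, H4C8 included, and in 11.2% of all promoters. TATAAA was found for 44 of the 64 genes and in 11.6% of all promoters. These matches are a description of letters, not of binding.

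The lists below are read against all measured genes, of which 12.1% were called higher and 11.3% lower at 1.5-fold, with a median log2 ratio of 0.05. Of 12 measured genes that act in histone gene transcription, 0 were at least 1.5-fold higher and 2 were lower, and the median log2 ratio was -0.06. The 2 lower calls lie near that background. NPAT, the coactivator of the histone locus body that cyclin E and CDK2 act on, had 183 and 1553 counts, a log2 ratio of 0.42 (0.20 to 0.65). CASP8AP2, which encodes the locus body protein FLASH, had 0.53 (0.30 to 0.77) and the general factor gene TBP had 0.48 (0.21 to 0.76). POU2F2, a lymphoid octamer-binding factor, had 632 and 582 counts, a log2 ratio of -2.79 (-2.95 to -2.62). The S-phase activator gene E2F1 had -0.84 (-1.01 to -0.66). The abundant members YY1 and GTF2A1 had -0.12 and -0.01.

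Of 24 measured genes of histone mRNA end processing and decay, 4 were at least 1.5-fold higher and 2 lower, with a median log2 ratio of 0.01. These counts are near the 12.1% and 11.3% over all measured genes and are not a result about the list. SLBP, the stem-loop binding protein, had 747 and 2884 counts and a log2 ratio of -0.72 (-0.84 to -0.60). LSM11, a subunit of the U7 particle that guides the cut after the stem-loop, had -0.82 (-1.24 to -0.37). ZNF473, another factor tied to the U7 particle, had 1.03 (0.76 to 1.32), and its exons overlap those of VRK3. TUT7, a uridylyltransferase that marks RNAs for decay, had 0.80 (0.59 to 1.01). The abundant members SSB, which encodes the La protein, and SNRPB, which encodes a core protein of spliceosomal particles, had 0.60 (0.52 to 0.69) and -0.15. The exons of SSB overlap those of METTL5.

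Histone variant genes lie outside the clusters and are mostly expressed independently of replication, from polyadenylated mRNA. Of 12 measured, 5 were at least 1.5-fold lower, against 11.3% of all measured genes, and 2 higher, against 12.1%. Their median log2 ratio was -0.55. The linker histone variant H1-10 had 475 and 1577 counts. Its log2 ratio was -0.94 (-1.09 to -0.79), opposite in direction to H1-2. CENPA, the centromeric H3 variant, had -1.49 (-1.77 to -1.19). H2AZ1 and H3-3B, the most abundant variants, had -0.63 (-0.68 to -0.59) and -0.42 (-0.49 to -0.35). H2AX, the DNA damage variant, whose gene is known to give a stem-loop mRNA as well as a polyadenylated one, was also called, at -0.92, and H2AJ at 0.64. H3-5, the other gene called higher, had only 3 and 74 counts and a ratio of 3.88-fold with a log2 interval of 0.35 to 4.27. It reached the minimum only through the CCE library, at 2.09 CPM against 0.540 in the control. The exons of CENPA, H1-10, H2AZ1 and H3-3B overlap those of another gene. H2AX and H2AJ fell outside the naming rule and were chosen after their values were seen.

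Histone chaperones carry new histones to DNA. Of 23 measured, 3 were at least 1.5-fold higher, near the 12.1% of all measured genes, and 6 lower, against 11.3%, with a median log2 ratio of -0.18. SPTY2D1, an H3-H4 chaperone gene, had 1.03 (0.77 to 1.30) and ASF1A, an H3-H4 chaperone, had 0.88 (0.64 to 1.13). Its paralog ASF1B, named after its value was seen, had -0.77 (-0.93 to -0.59). TONSL, which binds new H4 at the replication fork, was 0.499-fold (0.430 to 0.582), and the importin gene IPO4 had a log2 ratio of -0.88 (-1.52 to -0.19). NAP1L1 and SSRP1, the most abundant members, had -0.12 and -0.25. All of these chaperone genes have exons that overlap those of another gene, MCM9 for ASF1A and REC8 for IPO4 among them.

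**Figure D4:**
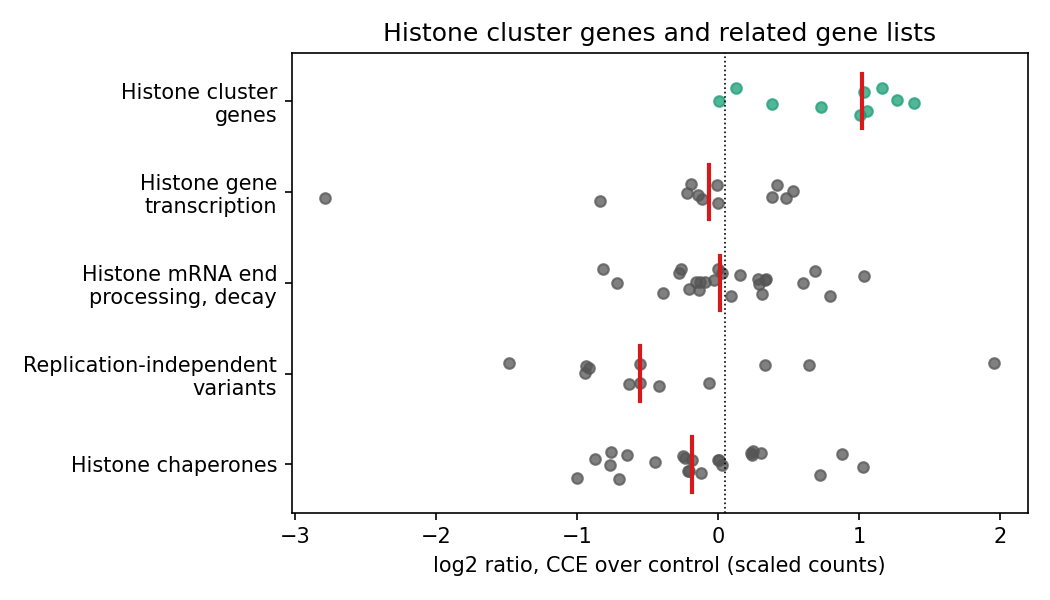
Log2 ratio of CCE over control for each measured gene (points) of the histone clusters and of 4 related lists, with the list median as a red bar and the median of all measured genes as a dotted line. The cluster genes have a median of 1.02 and the replication-independent variants of -0.55.

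Reads with several alignments stand in a row of their own in the count tables, and their share differed: 11.6% of all control records and 17.3% of all CCE records. RNAs that carry no poly(A) tail, chosen after the counts were seen, were low in both. RN7SK, a nuclear RNA that holds back transcription elongation, had 1 and 16 counts (2.52-fold, 0.391 to 106). RN7SL2 had 0 and 17 counts and TERC had 0 and 11. All snRNA genes together had 68 and 553 counts (1.28-fold, 0.993 to 1.67) and all snoRNA genes 121 and 858 (1.12-fold, 0.921 to 1.36). The part of these differences in the histone ratios was not tested.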

How the data were processed

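The submitters' processing notes name HISAT2 and hg19 (GRCh37). No source used here names the counter, strand option, gene models or FPKM software. The authors deposited raw counts per Ensembl gene and FPKM per transcript, which were summed per gene, for each library. The depth behind FPKM is unknown. Rows that name no gene took 62.9% of control and 66.8% of CCE records and were left out. The members and lists were chosen with earlier results of these data known.

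Old symbols were matched through RefSeq synonyms (70 of 70), and symbols to identifiers and GRCh37 coordinates through GENCODE release 44 lifted to GRCh37; 8012 table identifiers were not found in it (0.715% of control and 0.687% of CCE counts). Libraries were scaled with TMM factors (edgeR 4.0.16, R 4.3.3; 0.987 and 1.01). Ratios are CCE over control with no pseudocount and exact Clopper-Pearson intervals (scipy 1.17.1, Python 3.11.15). A call needed a mean of at least 1 CPM, 1.5-fold and an interval excluding 1. A gene at 0 was read against a floor of 3 counts. The ratio procedure was tested on simulated data. Named genes were all measured members, those near 0 and the testis-type members, up to 4 genes per other list with the largest ratios, up to 2 of its most abundant, SLBP and NPAT; others are said to be chosen later, and 1 gene of the variant list is not reported here by name. Alternatives were scaling by total counts, by upper quartiles or with DESeq2 1.42.0, totals of nuclear genes, log2(FPKM + 1) and log2(FPKM + 0.1), no count filter, a mean of 5 CPM, 2-fold, and left-out members.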

Additional observations from a re-analysis of the deposited data

How the results depend on the processing

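No paired analysis was possible because each group has 1 library, and for the same reason no library could be left out. Under the 3 other scalings (H2BC12 at -0.04 with upper quartiles) and, for class sums, nuclear totals, every histone sum and each of the 10 measured genes stayed within its main interval; 5 members were called higher with upper-quartile and DESeq2 scaling and 6 with total counts, and 0 lower. By FPKM with pseudocounts of 1 and 0.1, the log2 ratio of the sum over all members was 0.58 and 0.59 (0.40 by counts), of H1 4.97 and 5.52, with H1-2 listed at 0 in the control, of H2A 0.68 and 0.71, and of H2B 0.20 and 0.20; 4 and 5 members were at least 1.5-fold higher, with H2BC11 not among them at 0.38 and 0.41, and 1 member, H2BC15, was lower under either. The FPKM medians of the transcription list were -0.43 and -0.54, and of the end processing list -0.36 and -0.37. The cause was not tested. Without the most abundant member the log2 ratio of the sum was 0.92 for all, 0.82 for H2A and 0.36 for H2B. The member left out was H2BC12 for all and for H2B, at a log2 ratio of 0.01, and H2AC6 for H2A, at 1.05. For H1 and H4 leaving out the most abundant member left 0 control counts and no value. H3 had no control counts and no ratio. Over genes that overlap no other gene, the medians of the transcription and chaperone lists lay at 0.19 and 0.00; with upper quartiles that of end processing was -0.03. Depth limits H2AC11, H2BC15, H2BC21 and all 26 genes under the minimum.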

Other observations

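The annotation gives some cluster genes a transcript that runs on past the stem-loop. For H2BC21 this is the only annotated transcript. A reach of more than 500 bases past the stem-loop, a limit set after the values were seen, held for 14 of the 36 matched genes. Of these 14, 7 were measured (H2AC6, H2BC4, H2BC5, H2BC11, H2BC15, H2BC21 and H4C8) and 5 were at 0 in both libraries. Of the 22 others, 3 were measured (H1-2, H2BC12 and H2AC11) and 7 were at 0 in both. The 14 genes had 477 and 5190 counts in all (1.71-fold, 95% counting interval 1.56 to 1.88). The 22 others had 1486 and 11291 (1.20-fold, 1.13 to 1.26), and without H2BC12 they had 225 and 3233 (2.26-fold, 1.97 to 2.60), most of them from H1-2. The annotation behind the deposited counts was not used here and may hold other transcripts.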
